A study of Mus musculus with 4 samples.

Results

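The interferon-inducible GTPases are proteins that cells make on contact with interferons and that coat and disrupt the vacuoles in which intracellular bacteria and parasites live. The guanylate-binding proteins (Gbp2, Gbp3 and Gbp6 here) are large GTPases, some of them anchored to membranes by a prenyl lipid. The immunity-related GTPases are smaller. Among them Irgm1 and Igtp (also called Irgm3) sit on the cell's own membranes and hold the others in check, while Iigp1 (Irga6), Tgtp1 (Irgb6) and Ifi47 (Irgd) are the effectors that load onto vacuoles. Type II interferon acts on genes through a gamma-activated sequence (GAS) in their promoters. Type I interferon acts through a complex with STAT2 and IRF9 that binds an interferon-stimulated response element (ISRE).

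The 8 genes were matched to probes by the gene name on the array, and were chosen with earlier results of these data known. They had 11 probes, out of 41174 probes and 28146 gene names on the array. Expression was compared between clones of EPH-4, a non-malignant mouse mammary epithelial line. EV-50 carries an empty H1-2 vector and has normal levels of the glucocorticoid receptor (GR), the product of Nr3c1. In shGR-19 an shRNA vector lowers GR. Both clones carry a puromycin marker and were grown without serum in 2 µg/ml puromycin, and the labels name neither an interferon nor a glucocorticoid treatment. Each line is 1 clone, so a difference between the lines cannot be told apart from a difference between clones. From each line 300 ng RNA was labelled with Cy3 for each of 2 Agilent arrays. Nothing in the labels says that the duplicates came from separate cultures, so p-values measure the spread between these arrays, which may be technical. In such bulk RNA, fewer expressing cells and less RNA per cell cannot be told apart.

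The promoters are shown first, since the ISRE and GAS are the elements through which interferons act. RefSeq promoter windows (GRCm38.p6, 250 bases before and 50 after the annotated start) were at hand for 7 of the 8 genes, all but Iigp1. The probe named Gbp6 on the array belongs by its accession to the gene now called Gbp7, and the Gbp7 window was used for it. The last 120 bases before the start are printed 5′ to 3′ for the 6 genes with a match. Capitals mark ISRE letters (GAAANNGAAA) and GAS letters (TTCNNNGAA) found on either strand.
Igtp, chr11:58199436-58199555, plus strand: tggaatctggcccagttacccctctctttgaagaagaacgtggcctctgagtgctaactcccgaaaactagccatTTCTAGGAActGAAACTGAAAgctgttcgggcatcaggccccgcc
Tgtp1, chr11:48992247-48992366, minus strand: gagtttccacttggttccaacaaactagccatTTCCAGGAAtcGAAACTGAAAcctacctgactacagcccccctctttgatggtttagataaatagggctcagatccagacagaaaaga
Irgm1, chr11:48871421-48871540, minus strand: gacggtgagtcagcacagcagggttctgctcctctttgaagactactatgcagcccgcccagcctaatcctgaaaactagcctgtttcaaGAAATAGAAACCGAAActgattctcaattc
Gbp2, chr3:142620543-142620662, plus strand: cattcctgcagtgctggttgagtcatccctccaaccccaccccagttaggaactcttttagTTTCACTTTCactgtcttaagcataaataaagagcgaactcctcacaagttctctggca
Gbp3, chr3:142559924-142560043, plus strand: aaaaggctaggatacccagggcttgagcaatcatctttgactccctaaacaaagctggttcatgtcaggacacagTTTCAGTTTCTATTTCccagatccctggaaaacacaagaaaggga
Gbp7 (the array's Gbp6), chr3:142530216-142530335, plus strand: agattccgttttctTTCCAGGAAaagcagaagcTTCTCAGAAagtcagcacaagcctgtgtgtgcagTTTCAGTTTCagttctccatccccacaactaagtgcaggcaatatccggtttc

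ISRE letters were found in 6 of the 8 windows, and so in 6 of the 7 genes, while 3.44% of the 32851 windows in the RefSeq table hold them. In Irgm1 and in Gbp3 there were 2 overlapping matches. GAS letters stood in 3 of the 8, those of Igtp, Tgtp1 and Gbp7, against 8.30% of all windows. In Igtp and Tgtp1 the GAS letters lay directly before the ISRE letters, with 2 bases between them, from base -45 to -25 in Igtp and from base -88 to -68 in Tgtp1. The joined pattern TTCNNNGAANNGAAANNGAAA, searched after it had been seen in these promoters, occurred in 5 of the 32851 windows, those of Igtp, Tgtp1, Tgtp2, Irgm2 and Gm12185. Neither ISRE nor GAS letters were found in the Ifi47 window or in that of the other annotated Gbp3 start. The full glucocorticoid response element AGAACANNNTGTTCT was in 3 windows of the table and in none of these genes. Its AGAACA arm alone was found in Tgtp1, at base -166, and in 6233 of all windows. A match is a string of letters and not a measured binding site.

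**Figure D1:**
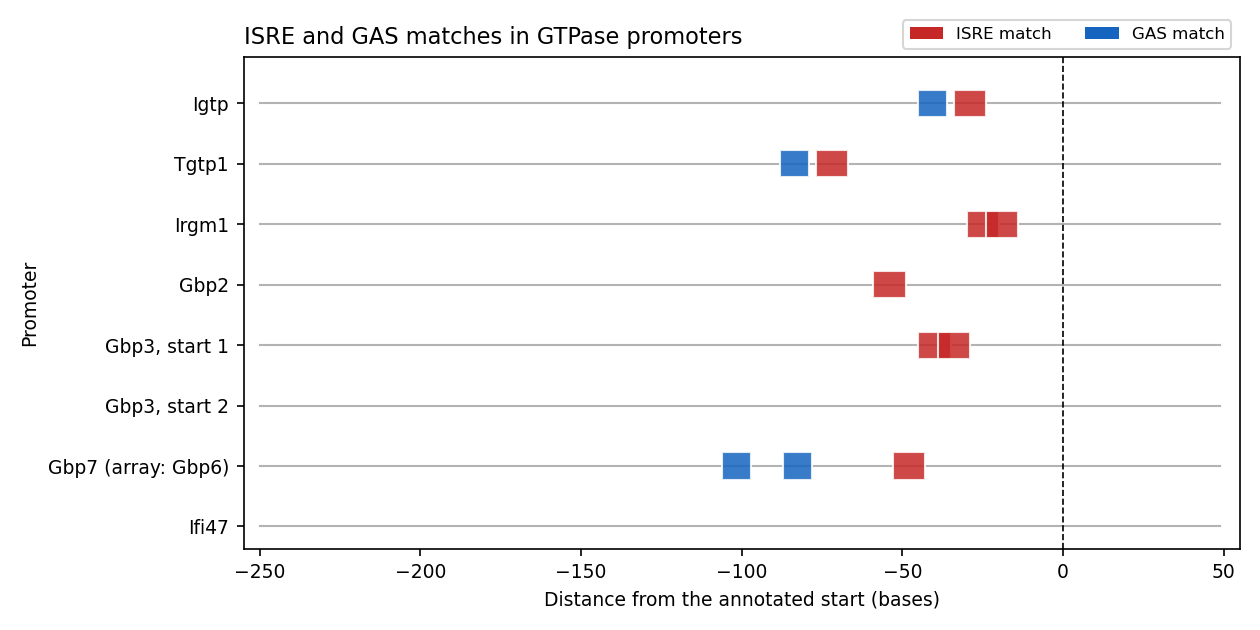
Positions of ISRE letters (red) and GAS letters (blue) along 8 promoter windows of 7 genes, in bases from the annotated start (dashed line), with overlapping matches drawn over each other. All matches lie between base -106 and base -15, and the Ifi47 window and the Gbp3 start 2 window have none.

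The 4 arrays gave 23290 to 27358 spots well above background. Levels are given on the log2 scale relative to the 75th percentile of each array, which was a signal of 516 to 584, and a level of 0 is thus a bright probe. A table of log2 values came with the scanner files, in which the authors had centred each probe on its median over the 4 columns. The scanner files and this deposited table disagreed. Over 10267 bright probes, the arrays that the scanner files give for replicate 1 of EV-50 and of shGR-19 lay an SD of 0.0801 apart, with 0 probes over 2-fold apart, less than the duplicates within EV-50 (0.516) or within shGR-19 (0.621). The table's duplicates differed by 0.0961 and 0.0854. Across those probes its difference between the lines correlated with the scanner replicate 2 pair at r = 0.959 and with the replicate 1 pair at r = 0.121. Why the sources differ was not tested, and each result is given from both. Nr3c1, the targeted gene, had scanner levels of 1.81 and 1.92 on the EV-50 arrays and 1.46 and -0.03 on the shGR-19 arrays. The deposited table had it lower in shGR-19 (-1.94 on the log2 scale, SE 0.048, adjusted p = 0.0022), and all 4 of its probes were below EV-50 in both sources.

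Of the 11 GTPase probes, 9 probes of 7 genes were detected in duplicate in EV-50, in shGR-19 or in both, and were tested. The other 2 were the Iigp1 probe and a dim Irgm1 probe. In the deposited table, 4 of the 9 were lower in shGR-19 by more than 2-fold at an adjusted p below 0.01, those for Gbp3, Tgtp1 (1 of its 2 probes), Gbp6 and Igtp, where 2.39% of all 24443 probes met the same rule. None was higher, against 1.87% of all probes. From the scanner files, 0 of the 9 met the rule, as did 0% of all probes. There limma gave 0 of the 9 and 209 of all probes at an unadjusted p below 0.05, and a plain equal-variance test likewise called none of the 9. The means of all 9 were lower in shGR-19 in the scanner files, by 0.02 to 1.27 on the log2 scale, with SEs of 0.21 to 2.29. Both EV-50 columns of the deposited table were above both shGR-19 columns for 8 of the 9, as they were for 35.3% of all probes. On the scanner arrays this held for 0 of the 9 and for 6.14% of all probes. The table's median difference was -0.47 over the 9 probes and 0.01 over all probes. With any 1 column of the table left out, a line has a single column, so only sizes are given, which do not show whether the calls hold. The differences of the 4 hardly moved. Gbp3 ran from -2.51 to -2.39, Tgtp1 from -1.24 to -1.22, Gbp6 from -1.11 to -1.01 and Igtp from -1.06 to -0.99. When dim probes were kept in the limma fit, none of the 4 stayed below an adjusted p of 0.01 (0.0113 to 0.0192). In that fit 28 of all probes were called lower, against 585 in the main fit.

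The spread of the scanner values was between arrays that carry different replicate numbers. For 8 of the 9 probes the arrays labelled replicate 2 were above those labelled replicate 1 by more than 2-fold in both lines, which 2.55% of all probes did. On the log2 scale the median excess over the 9 probes was 2.35 (EV-50) and 1.79 (shGR-19), against -0.03 and -0.06 over all probes. The deposited table did not show this gap, with medians of -0.04 and -0.02 over the 9 probes. The exception in the scanner files was the Tgtp1 probe A_51_P478722. Between the arrays labelled replicate 2 alone, 3 of the 9 probes were lower in shGR-19 by more than 2-fold (3.16% of all probes), and between those labelled replicate 1, 0 of the 9 (1.11% of all probes). Those pairs are single arrays and allow no test.

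**Figure D2:**
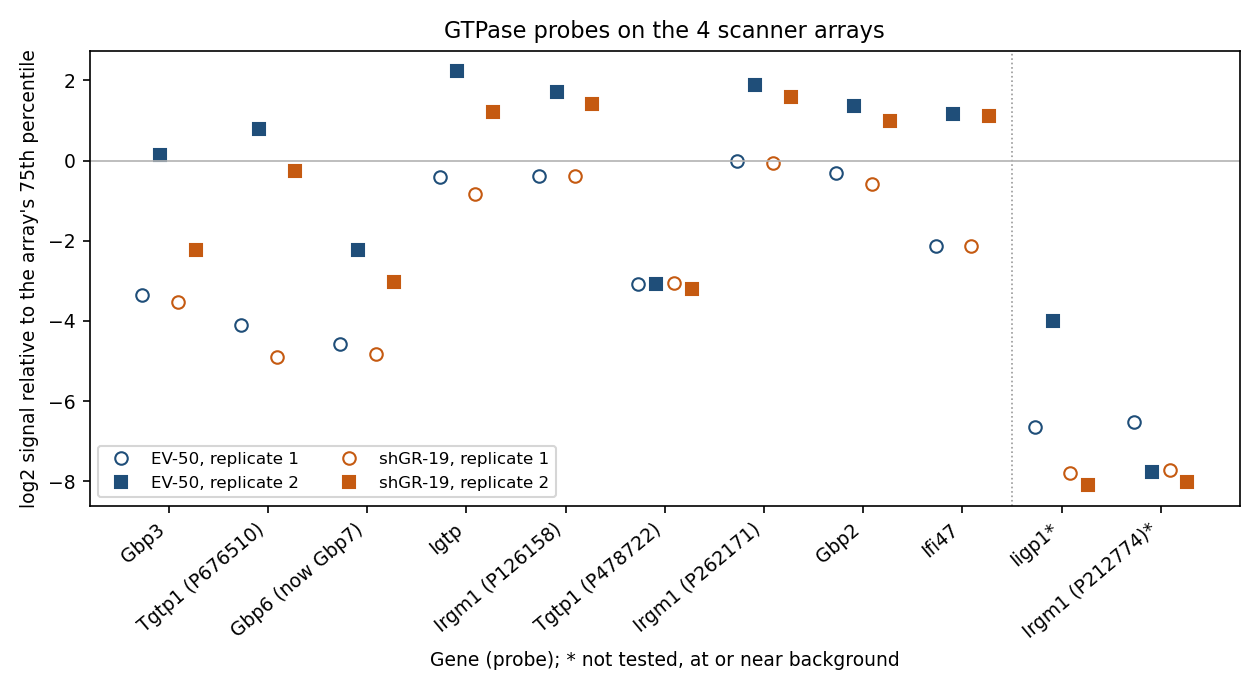
Scanner level of each GTPase probe on the 4 arrays, as log2 signal relative to the array's 75th percentile. Blue is EV-50 and orange shGR-19, open circles are replicate 1 and filled squares replicate 2. For every tested probe but Tgtp1 P478722 both squares lie above both circles, as they do for 28.1% of all probes. Heights of different probes are not comparable.

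Among the guanylate-binding proteins, Gbp3 showed the largest difference between the lines of the 9 probes tested. Its scanner levels were -3.36 and 0.15 on the EV-50 arrays and -3.52 and -2.23 on the shGR-19 arrays. The EV-50 array labelled replicate 2 stood above the other 3, and the lines overlapped. Gbp3 was in the deposited table at 1.29 and 1.18 in EV-50 and at -1.18 and -1.25 in shGR-19, without overlap. The fitted difference was -2.45 (SE 0.067, n = 2 per line, adjusted p = 0.0022 by limma), a 5.46-fold lower level, and the scanner pair labelled replicate 2 differed by -2.38. The scanner fit gave -1.27 (SE 1.28, adjusted p = 1.00). The Gbp3 probe lies at chr3:142236072-142236131 in mm9.

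The probe named Gbp6, that of Gbp7, lies in the same cluster at chr3:142209379-142209438. It was dim, with scanner levels of -4.59 and -2.23 in EV-50 and -4.83 and -3.04 in shGR-19, and the lines overlapped. Its table values were 0.49 and 0.59 in EV-50 against -0.49 and -0.55 in shGR-19. The difference there was -1.06 (SE 0.064, adjusted p = 0.0047), just past 2-fold, and became -0.99 after quantile normalization of the table. The gene now called Gbp6 is measured by the probe that the array names Mpa2l. It was well above background on the replicate 2 array of each line only and was not tested. Between those arrays EV-50 was higher by 2.38 on the log2 scale.

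Gbp2, which coats bacteria and vacuoles in many cell types, was measured at chr3:142300719-142300778 in mm9. It had scanner levels of -0.32 and 1.37 in EV-50 and -0.59 and 0.99 in shGR-19, so that each shGR-19 array lay a little below the EV-50 array of its number. The deposited table had 0.20 and 0.16 in EV-50 and -0.17 and -0.16 in shGR-19. The lines did not overlap, yet the difference was small (-0.35, SE 0.048, adjusted p = 0.0166) and was not called. Gbp2 and Gbp3 lie in the same cluster of chromosome 3, and their table differences were 1.27-fold and 5.46-fold. The difference between these genes was not tested.

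**Figure D3:**
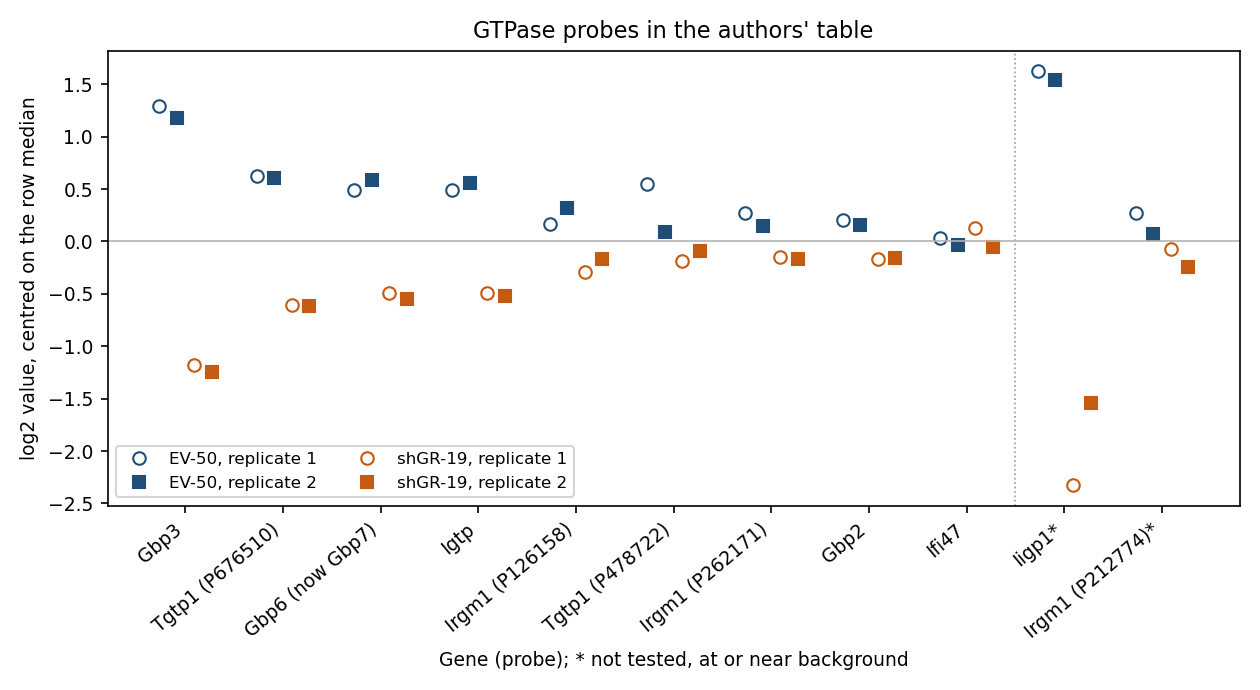
Value of each GTPase probe in the 4 columns of the deposited table, log2 and centred on the probe's median, with colours and symbols as for the scanner levels. EV-50 lies above shGR-19 for every tested probe except Ifi47, and the widest gap among tested probes is that of Gbp3, from 1.18 down to -1.18.

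Igtp, a regulator that guards the cell's own membranes, was well above background on every array (probe at chr11:58020927-58020986 in mm9). Its scanner levels were -0.41 and 2.22 in EV-50 and -0.84 and 1.22 in shGR-19. The lines overlapped, but within each replicate number shGR-19 was lower, by -0.43 between the arrays labelled replicate 1 and by -1.001 between those labelled replicate 2. The arrays labelled replicate 1 hardly differed elsewhere. Only 10 of the 10267 bright probes, that of Igtp included, were as low or lower in shGR-19 in that pair. The brightest Nr3c1 probe stood among 17 (-0.35), Gbp2 among 37 (-0.27) and the Irgm1 probes among 1137 and 3549. Between the arrays labelled replicate 2, 199 of the bright probes were as low as Igtp or lower, 38 as Nr3c1, 1505 as Gbp2, and 2031 and 2035 as the Irgm1 probes. The deposited table had Igtp at 0.49 and 0.55 in EV-50 and -0.49 and -0.52 in shGR-19, a difference of -1.02 (SE 0.053, adjusted p = 0.0039) or 2.03-fold. That is close to the 2-fold limit, and quantile normalization of the table brought it to -0.96, inside the limit. The scanner fit gave -0.72 (SE 1.15, adjusted p = 1.00).

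Irgm1, the other regulator measured, differed less. Its brighter probes lie at chr11:48679069-48679128 and chr11:48679419-48679478 in mm9. Its probe A_51_P262171 had scanner levels of -0.00 and 1.89 in EV-50 and -0.07 and 1.59 in shGR-19, and its probe A_52_P126158 had -0.38 and 1.71 against -0.39 and 1.41. On both probes the lines overlapped and nearly coincided between the arrays labelled replicate 1. From the deposited table, the first of these probes gave -0.37 (SE 0.067, adjusted p = 0.0284) and the other -0.47 (SE 0.088, adjusted p = 0.0299), neither of which was called. A further Irgm1 probe, A_52_P212774, was above background on no array.

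Tgtp1, an effector, has a near-identical neighbour, Tgtp2, and how far its probes detect both was not tested. Its probe A_52_P676510 (chr11:48800173-48800232 in mm9) had the widest range over the arrays of the 9 probes, with scanner levels of -4.09 and 0.79 in EV-50 and -4.90 and -0.26 in shGR-19. The duplicates lay 29.5-fold apart in EV-50 and 24.9-fold apart in shGR-19, the array labelled replicate 2 being the higher, while shGR-19 was lower than EV-50 by -0.81 and -1.05 within the numbers. This probe was in the deposited table at 0.63 and 0.61 in EV-50 and at -0.61 and -0.61 in shGR-19, a difference of -1.23 (SE 0.046, adjusted p = 0.0029) or 2.34-fold. The scanner fit gave -0.93 (SE 2.29, adjusted p = 1.00). The other probe of Tgtp1, A_51_P478722 (chr11:48799587-48799646), stayed between -3.21 and -3.05 on all 4 arrays. Its table difference was -0.46 (SE 0.180, adjusted p = 0.134), so the probes of this gene did not give the same picture.

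Ifi47, an effector, did not differ between the lines by more than its spread (probe at chr11:48910173-48910232 in mm9). Its scanner levels were -2.14 and 1.17 in EV-50 and -2.13 and 1.11 in shGR-19. The lines coincided within each replicate number, and the duplicates lay 9.89-fold apart in EV-50 and 9.45-fold apart in shGR-19. The table columns were 0.03 and -0.03 in EV-50 and 0.13 and -0.05 in shGR-19. The difference of 0.04 (SE 0.084, adjusted p = 0.748) was the only one above 0 among the 9 probes there.

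Iigp1, an effector on chromosome 18, was at the limit of detection. Its probe was well above background only on the EV-50 array labelled replicate 2, at a level of -4.00, with -6.66 on the other EV-50 array and -7.81 and -8.09 in shGR-19. Against the lowest signal well above background, Iigp1 was at least 4.25-fold higher in EV-50 between the arrays labelled replicate 2, which are single arrays. The table gave it 1.62 and 1.54 in EV-50 and -2.32 and -1.54 in shGR-19. No size is given for that difference, since the scanner signal was not well above background on 3 of the 4 arrays.

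**Figure D4:**
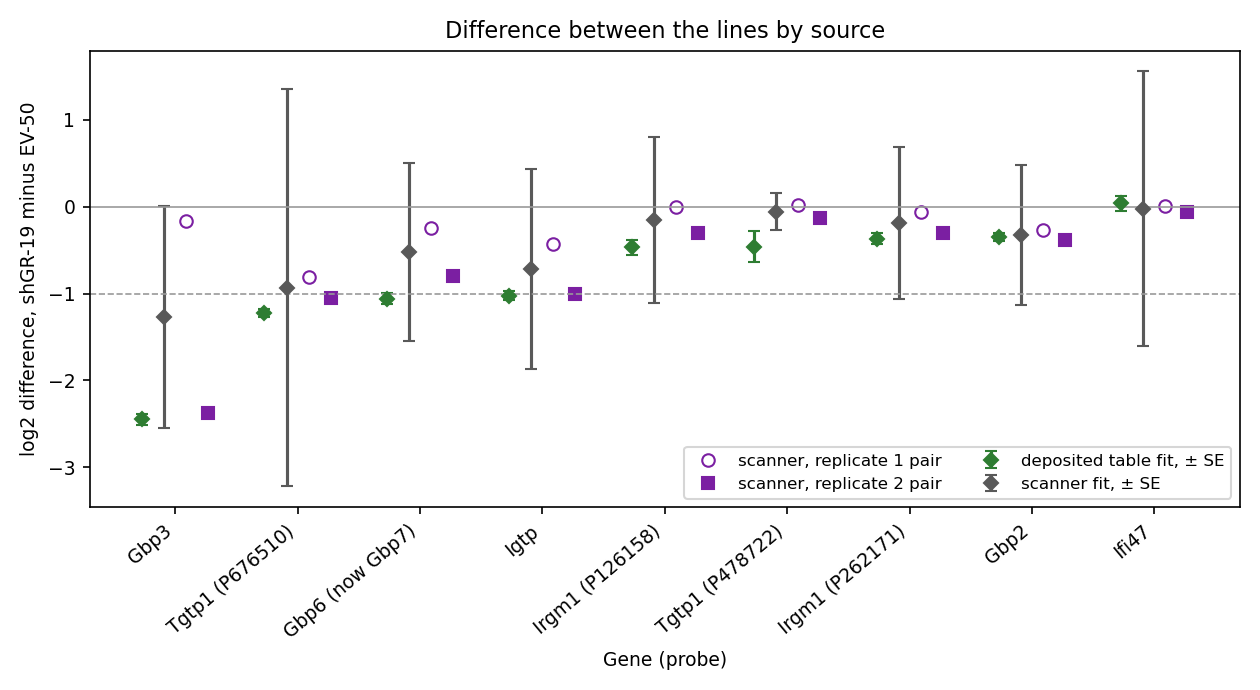
Difference between the lines, shGR-19 minus EV-50 on the log2 scale, for the 9 tested probes. Diamonds are fitted values with their SE, from the deposited table (green) and the scanner files (grey), and purple symbols are the single scanner pairs. The dashed line marks 2-fold. For Gbp3 the table fit (-2.45) lies beside the replicate 2 pair (-2.38) and far from the replicate 1 pair (-0.16).

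For the 9 probes the deposited table and the scanner pair labelled replicate 2 differed by a median of 0.0951 and at most 0.323 on the log2 scale, and the table and the pair labelled replicate 1 by up to 2.29. The scanner differences turned sign when single arrays were left out, which sets a line with 1 replicate number against a line with both. Without EV-50 replicate 2, 8 of the 9 were higher in shGR-19, by 0.48 (Gbp3) to 1.63 (Ifi47), the exception being Tgtp1 probe A_51_P478722 (-0.05). Without shGR-19 replicate 1, 7 of the 9 were higher, by 0.31 (Igtp) to 1.60 (Ifi47), and Gbp3 was at -0.62 and that Tgtp1 probe at -0.13. Without EV-50 replicate 1, all 9 were lower, down to -3.37 for Tgtp1 probe A_52_P676510, and without shGR-19 replicate 2, 8 of the 9 were.

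Other GTPases of these families and their interferon-inducible relatives were taken as a list. Of 28 names 16 were on the array and 8 were tested. In the deposited table, 4 of the 8 were called lower and 0 higher, with a median of -1.32 against 0.02 over all 16754 tested genes, of which 453 were called lower and 362 higher. They were Mx2, an antiviral GTPase (-2.34, SE 0.106, adjusted p = 0.0035), Gbp8 (-1.95), Irgm2, a regulator next to Igtp (-1.48), and Gvin1, a very large GTPase (-1.16). Gbp9 was at -0.997, just short of 2-fold, and its other probe was called at -1.76. Gbp4 was at -2.30 with an adjusted p of 0.0117. Gbp5, which lies in the chromosome 3 cluster, was at 0.40 (SE 0.509, adjusted p = 0.586). From the scanner files 0 of the 8 were called, with a median of -0.62. The replicate 2 array exceeded the replicate 1 array by 3.65 in EV-50 and 2.39 in shGR-19 for Irgm2, and by 4.04 and 2.69 for Gvin1.

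Of 21 genes of interferon signalling, 19 were tested. Of these, 3 were called lower in the deposited table and 2 higher (453 and 362 of all 16754 tested genes), with a median of -0.06. The lower ones were Irf9 (-1.66, SE 0.071, adjusted p = 0.0033), the DNA-binding part of the type I complex, Usp18 (-1.42), a brake on the type I receptor, and Stat2 (-1.04), a partner of Irf9. The higher ones were Irf8 (2.70), of which the other probe gave 0.98 and was not called, and Socs1 (1.49), an inhibitor of JAK kinases. The receptors of type II interferon were at -0.14 (Ifngr1) and -0.18 (Ifngr2, its other probe at -0.56). Those of type I interferon were at 0.84 (Ifnar1, adjusted p = 0.0053) and -0.06 (Ifnar2). Irf1, which also binds ISRE letters, was at -0.03. None of these genes was called. Without the fold limit, 4 genes of the list were lower and 5 higher at an adjusted p below 0.01.

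Of 10 inflammasome and caspase genes, through which guanylate-binding proteins trigger cell death, 6 were tested, with a median of -1.06 in the deposited table. Of these 6 genes, 4 were called lower there, as were 453 of all 16754 tested genes. The 4 were Casp4 (-2.31), which senses lipopolysaccharide, Gsdmd (-2.11), which forms the pore, Casp1 (-1.10) and Il18 (-1.03). Pycard was at 0.30 and Nlrp3 at -0.31, and neither was called. Of 13 conjugation and autophagy genes, on which loading of the GTPases onto vacuoles depends, 13 were tested and 0 were called on their brightest probe (median 0.01), although a dimmer Traf6 probe was called higher at 1.38. The 5 prenylation enzymes (median 0.04) and 7 reference genes (median -0.02) had 0 calls. From the scanner files no gene of any of these lists was called.

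**Figure D5:**
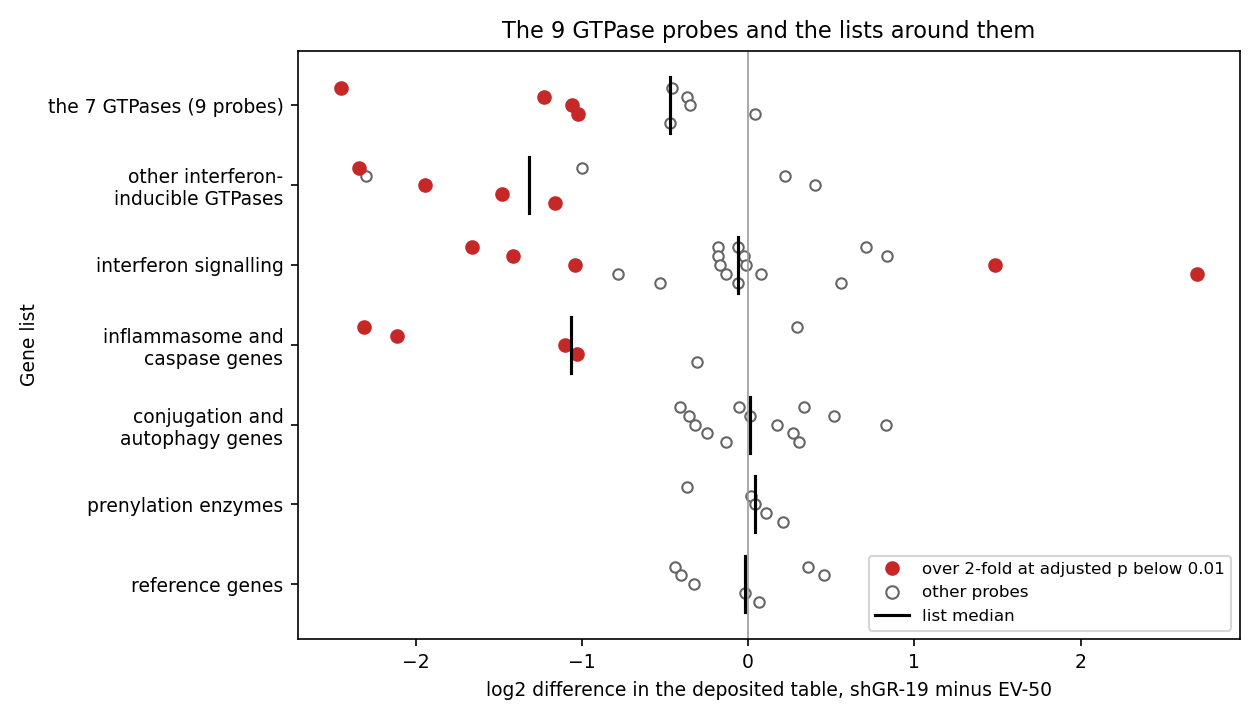
Differences between the lines in the deposited table (log2, shGR-19 minus EV-50) for the 9 GTPase probes and for the brightest tested probe of each gene in 6 lists. Red points are over 2-fold at an adjusted p below 0.01, and black bars are medians. Calls are on the lower side except for 2 of interferon signalling.

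Markers of cell types were read beside these results. Of 12 epithelial markers 11 or 12 were above background on each array, and the deposited table had Krt14 called lower (-1.13). Of 13 immune markers 8 to 10 were above background on each array, and Ptprc, Itgam and Emr1 were on none. The summed immune signal was 2.68 to 3.60 times the 75th percentile over the 4 arrays. Of the 9 immune markers tested 0 were called in the deposited table, where Cd14 was at -0.81 (adjusted p = 0.0045) and Lyz2 at 0.76 (adjusted p = 0.0068), both inside 2-fold. The 3 fibroblast markers tested were all called higher in the deposited table, Col1a2 by 3.27, Pdgfrb by 2.03 and Pdgfra by 1.16 on the log2 scale. Of all 16754 tested genes 362 were called higher there. The summed fibroblast signal was 2.02 and 6.55 in EV-50 and 1.89 and 49.8 in shGR-19, with Dcn above background on no array. Of 4 endothelial markers 2 were tested and 0 were called. The part of these differences in the GTPase values was not tested.

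Most of the members lie in clusters, so the genes around them were counted over 200 kb on either side of each probe. Around Irgm1, Tgtp1 and Ifi47 on chromosome 11, 12 genes that are not GTPases had 18 tested probes, of which 0 were called in the deposited table (median 0.15). Around Igtp there were 7 such genes with 14 probes and 0 calls (median 0.09), while Irgm2 was called lower. The cluster on chromosome 3 had 3 such genes with 5 probes and 0 calls (median 0.20). Around Iigp1 4 genes with 7 probes had 0 calls and a median of -0.47.

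The genes whose 4 scanner levels lay closest to the median profile of the 9 probes, by Euclidean distance after centring each probe on its mean, were Synpo (0.0726), AK033632 (0.112), BC010335 (0.115), A330049M08Rik, now Ncmap (0.123), and Fbxo32 (0.136). From the deposited table they were Rbm27 (0.143), Ubp1 (0.145), Ank (0.145), Fry (0.146) and Naa16 (0.147). No gene was among the 5 nearest in both sources.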

How the data were processed

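Total RNA of 2 EV-50 and 2 shGR-19 samples was measured on Agilent Whole Mouse Genome arrays. The authors deposited the scanner intensity of each spot, background-subtracted by Feature Extraction 10.5.1.1 (default one-colour settings, probe positions in mm9) and not scaled between arrays, and a table of GeneSpring log2 values centred per probe. The 4 arrays shared 1 slide and 1 scan. Here log2 of the processed signal minus the array's 75th percentile was taken, without control and outlier spots, and probes detected well above background in duplicate in either line were kept (24443). Both sources were fitted with limma 3.58.1 (R 4.3.3), adjusted by Benjamini-Hochberg over all kept probes, and called at over 2-fold and an adjusted p below 0.01. A gene of a list was given by its brightest kept probe. The number of arrays and the spread within the lines limit the precision. In simulated data with 200 changed probes, noise was drawn separately for each array from the spread within the lines. The scanner fit recovered 0 of 100 at a log2 change of 3 and the table fit 73 of 100, with 1 false call. The simulation left out the deviations that scanner arrays of the same replicate number shared (r = 0.574). Of 41174 probe accessions 26918 matched the RefSeq gene table. The text names all probes of the members, Nr3c1, called genes of the lists and of the neighbourhood, and the 5 nearest profiles per source. Uncalled genes of the lists were named with their values known. The values of 1 gene of the signalling list are not reported here. Members and lists were chosen with earlier results of these data known. Alternatives were normexp (offset 50), quantile normalization, other percentile and probe filters, an intensity trend, a replicate block, each array left out, a plain equal-variance test, other thresholds and the mean of a gene's probes.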

Additional observations from a re-analysis of the deposited data

How the results depend on the processing

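In the scanner files no GTPase probe was called under any alternative that used the scanner values with a test. Read from the deposited table, 4 were lower, and between the arrays labelled replicate 2 alone, a comparison chosen after seeing the data, 3 were over 2-fold lower. In the deposited table the 4 calls became 2 after quantile normalization and 2 over 2-fold between the columns labelled replicate 1, and 0 with all probes kept, with the replicate number as a block, and with a plain equal-variance test after adjustment. Over the whole array, the 585 probes called lower became 533 after quantile normalization, and 1029 were over 2-fold lower between the columns labelled replicate 1. With all probes kept 28 were called lower, with the block 0 and with the adjusted plain test 11. Under quantile normalization and between the columns labelled replicate 1, the table gave 5 and 6 other GTPases, 2 and 3 signalling genes and 3 and 4 inflammasome genes lower. Against 0 in the scanner files, the table gave 4 other GTPases, 3 signalling and 4 inflammasome genes lower and 2 signalling genes higher, and the replicate 2 pair gave 5, 3, 3 and 2. All of these fell to 0 in the table with all probes kept, with the replicate block and with the adjusted plain test. Signalling genes higher numbered 1 with only probes above background on all 4 arrays and 5 without the fold limit, and autophagy genes higher numbered 1 without the fold limit and 1 between the scanner arrays labelled replicate 1. Nr3c1 was called at -1.94 in the table but not in the scanner files (-1.15). With all probes kept, with the replicate block or with the adjusted plain test its table value of -1.94 was not called. Ifi47 changed sign from the scanner files to 0.0395 in the table and to 0.0101 between the scanner arrays labelled replicate 1, and in the table to -0.0136 between the columns labelled replicate 2. Tgtp1 probe A_51_P478722 was at 0.0227 between the scanner arrays labelled replicate 1. With each array left out in turn, the scanner values ran from -1.17 to 0.52 for Gbp2, -3.03 to 0.48 for Gbp3, -1.70 to 0.65 for Gbp6, -2.03 to 0.60 for Igtp, -1.13 to 0.76 and -1.20 to 0.89 for Irgm1, -0.134 to 0.0205 and -3.37 to 1.51 for Tgtp1 and -1.68 to 1.63 for Ifi47, and those of Nr3c1 from -1.90 to -0.40. The table values of Ifi47 ran from -0.0482 to 0.127 and those of Nr3c1 from -1.95 to -1.92. The lone array of a line was then assumed to vary like the other line. For the table these fits are therefore given as sizes only, and they do not show whether the calls hold. The cause of these changes was not tested, except that leaving out an array leaves fewer arrays. It also leaves a line with 1 replicate number against a line with both, so the gap between the numbers enters the scanner difference.

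Deviations of samples with the same replicate number correlated at 0.574 over all kept probes in the scanner files and at 0.0553 in the table. With 2 numbers only, they are taken to share a number and no more, and the block is given as an alternative. Probes near background, as those of Iigp1, the Gbp6 probe and the dim Irgm1 probe, limit what can be measured. Tgtp1 probe A_52_P676510 was about as dim as the Gbp6 probe on the arrays labelled replicate 1. Its signals there were 30.9 in EV-50 and 17.2 in shGR-19, against 22.0 and 18.1 for the Gbp6 probe.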
